A study of Mus musculus with 51 samples.

Results

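The genes described here make, take up, store and export cholesterol and fatty acids in mouse cells that lacked an HMGN protein or carried an extra one. The set has 37 genes chosen by name, with earlier results of these data known. They are 25 of the sterol branch, 8 of the fatty acid branch and 4 of the efflux branch. Of these, 35 were matched to a probe set of the array through the platform annotation, out of 18145 genes with a probe set of 1 symbol. Acat2 and Nr1h2 had no such match and are named only. The brightest probe set of each gene in each cell type stood for the gene, and all 35 matched genes passed the filter on dim probe sets in all 3 cell types. In 2 cases, Abca1 and Nr1h3 in the SV40-transformed fibroblasts, some groups lay below the level of that filter, and their values are given as bounds. These 2 genes were tested there only because of the groups in which they were brighter. The probe sets that stood for the genes described most closely in those fibroblasts were 1433445_x_at for Hmgcs1, 1423418_at for Fdps, 1415993_at for Sqle, 1450646_at for Cyp51, 1454671_at for Insig1, 1415964_at for Scd1 and 1421840_at for Abca1.

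HMGN proteins are small chromatin proteins that bind nucleosomes, and the study measured what their loss or excess does to RNA levels. Its 51 Affymetrix arrays form 17 groups, each of 3. The first cell type was primary mouse embryonic fibroblasts (MEFs) of the C57BL/6 strain, as HMGN1, HMGN3 and HMGN5 knock out, each beside its own wild type (WT) group. The second was SV40-transformed MEFs from the ATCC, as 8 pools carrying a retroviral construct: the vector control, HMGN1, HMGN2, HMGN3a, HMGN5, HMGN5SE, HMGN1_N2swap and HMGN1_N3swap. The third was MIN6, a mouse insulinoma line used as a model of the pancreatic beta cell, as pools with the vector, HMGN1 or HMGN3a. The pools are not single clones. They were exposed to virus with polybrene at 5 µg/ml, held for 24 h without selection and then kept for 7 days in puromycin at 1 µg/ml, a treatment the vector pools shared. The same treatment text stands on the labels of the primary MEFs. All samples are also labelled with 10% fetal calf serum (FCS). The design text puts HMGN protein in the overexpressing cells at about double the usual amount. The labels do not say what the HMGN5SE change or the swaps exchange, nor whether the 3 arrays of a group came from separate cultures, so the p-values measure the spread between these arrays, which may be technical where nothing shows otherwise.

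Cholesterol is built from acetyl-CoA through mevalonate, farnesyl diphosphate, squalene and lanosterol, and most genes of that chain are switched on by the transcription factor SREBP2 (Srebf2) when sterols in the endoplasmic reticulum run low. The related factor SREBP1 (Srebf1) drives the synthesis and desaturation of fatty acids, while SCAP escorts both factors to the Golgi for activation and the INSIG proteins hold them back. LXR receptors (Nr1h3, Nr1h2) work in the opposite situation: they sense oxysterols and switch on the exporters ABCA1 and ABCG1. In embryonic fibroblasts these pathways supply membranes of dividing cells, and in beta cells cholesterol content is known to bear on insulin release.

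The stretches upstream of 4 genes are shown because these genes are among those with the largest changes in the results that follow and have a RefSeq entry: Hmgcs1 acts early in the sterol chain, Cyp51 starts the work on lanosterol, Insig1 is the brake on SREBP activation and Abca1 is a cholesterol exporter. Each is the 250 bases before the RefSeq start site, 5′ to 3′ on the strand of the gene, build GRCm38.p6. Hmgcs1 lies on the plus strand at chr13:119690101-119690350, Cyp51 on the minus strand at chr5:4104698-4104947, Insig1 on the plus strand at chr5:28071162-28071411 and Abca1 on the minus strand at chr4:53159896-53160145. Capitals mark matches on either strand to TCACNCCAC, a sterol regulatory element that SREBP binds, and to CCAAT, the box of the factor NF-Y, which reads ATTGG where it lies on the other strand.
Hmgcs1 promoter: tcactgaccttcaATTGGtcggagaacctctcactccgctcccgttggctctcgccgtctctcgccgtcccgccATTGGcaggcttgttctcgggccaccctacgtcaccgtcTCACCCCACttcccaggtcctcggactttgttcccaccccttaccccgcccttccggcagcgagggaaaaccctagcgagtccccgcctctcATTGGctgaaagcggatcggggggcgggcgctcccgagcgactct
Cyp51 promoter: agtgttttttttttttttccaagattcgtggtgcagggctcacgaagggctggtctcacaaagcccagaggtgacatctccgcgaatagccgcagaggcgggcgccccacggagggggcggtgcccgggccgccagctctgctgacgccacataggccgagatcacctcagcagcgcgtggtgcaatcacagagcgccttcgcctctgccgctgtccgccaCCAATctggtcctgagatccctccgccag
Insig1 promoter: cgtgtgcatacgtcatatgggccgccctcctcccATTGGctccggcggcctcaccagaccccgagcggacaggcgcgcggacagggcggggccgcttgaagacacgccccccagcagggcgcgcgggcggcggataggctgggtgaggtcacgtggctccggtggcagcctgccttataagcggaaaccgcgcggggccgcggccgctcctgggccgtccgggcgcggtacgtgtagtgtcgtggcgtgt
Abca1 promoter: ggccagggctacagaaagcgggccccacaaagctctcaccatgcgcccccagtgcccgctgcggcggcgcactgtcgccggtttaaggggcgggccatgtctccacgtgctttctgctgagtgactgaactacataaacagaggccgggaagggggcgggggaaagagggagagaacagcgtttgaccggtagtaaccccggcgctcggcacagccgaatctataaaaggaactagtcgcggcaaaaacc
In the Hmgcs1 stretch the sterol regulatory element starts at base -137 and 3 CCAAT boxes on the other strand start at -237, -176 and -45, counted from the start site. Cyp51 holds 1 CCAAT box, at -29, and Insig1 holds 1, at -216 on the other strand. The Abca1 stretch holds neither motif.

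RefSeq promoters, from 250 bases before to 50 bases after the start, were at hand for 29 of the 37 genes. Npc1, Sqle, Fdps, Fdft1, Scd1, Stard4, Scd2 and Abcg1 were without one. A gene counts as holding a motif if any of its listed promoters does, on either strand, here and over all genes. CCAAT occurred in 14 of 14 genes of the enzymes from Hmgcs1 to Dhcr7 that had a promoter, in 18 of 20 genes of the sterol branch (not in Scap or in Acat2, an enzyme counted here with the supply genes), in 3 of 6 of the fatty acid branch and in 0 of 3 of the efflux branch. The same 5 letters occurred in 41.1% of all 27025 genes with a promoter and in 42.5% of the 10831 such genes tested in SV40 MEFs. GGGCGG, the box of Sp1, occurred in 19 of 20 sterol genes, 2 of 6 fatty acid genes and 1 of 3 efflux genes, against 38.2% of all these genes and 65.8% of those tested. TCACNCCAC was found for 1 of 29 genes, that of Hmgcs1, against 1.44% of all genes. For the DR4 repeat that LXR binds, only exact copies were counted: AGGTCA, 4 bases of any kind and AGGTCA again. They were found for 0 of 29 genes and for 0.0148% of all genes. With so low a share, 0 of 29 cannot tell whether these promoters hold LXR elements that depart from these letters. A match describes these letters in this window and is not evidence of binding, and no match says nothing about the factor.

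The labels of the cell types were checked against marker genes. All 10 of 10 fibroblast markers lay above the dim level in each group of primary MEFs, 7 to 8 of 10 in the SV40 MEFs, and all 8 measured beta cell markers did so in MIN6 cells. Some markers of other cell types reached that level as well, so the check is a weak one. They included Ins2, Iapp, Nkx6-1 and the macrophage marker Lyz2 in groups of primary MEFs. Others were Ins2, Pdx1 and Nkx6-1 in groups of SV40 MEFs, and Dcn and Fn1 in MIN6 cells. The deposited intensities differed in scale, with array medians from 5.47 to 5.93 for the primary MEFs, from 18.7 to 19.6 for the SV40 line and from 55.5 to 57.6 for the MIN6 pools, so levels are compared only within a cell type. The Hmgn1 probe set was lower in the HMGN1 knock out (-0.67 on the log2 scale, adjusted p = 2.07e-06) and the Hmgn3 probe set in the HMGN3 knock out (-1.30, adjusted p = 2.02e-07). The Hmgn5 probe set was higher, by 0.72 (adjusted p = 0.031), in the arrays labelled HMGN5 knock out, which goes against that label. In the SV40 pools the Hmgn1 probe set changed by -0.01 with HMGN1 and the Hmgn5 probe set by -0.93 with HMGN5. Whether these probe sets read the constructs is unknown.

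In SV40 MEFs most of the cholesterol genes were higher in the pools with HMGN1, HMGN2 or HMGN5 than in the vector pool, with Fdps, Cyp51 and Insig1 among the 5 largest changes in each. With HMGN1, 29 of the 35 genes were called higher and 0 lower at an adjusted p below 0.05 in limma, 82.9% of the set, where 29.4% of all tested genes were called (17.4% higher, 12.1% lower). With HMGN2 the counts were 30 higher and 1 lower against 44.3% of all genes (18.7% higher, 25.6% lower), and with HMGN5 25 higher and 4 lower against 41.5% (20.7% higher, 20.8% lower). The median change of the 24 measured sterol genes was 0.77 with HMGN1, 1.11 with HMGN2 and 0.66 with HMGN5 on the log2 scale, and that of the 8 fatty acid genes was 0.45, 0.57 and 0.57. Over all tested genes the median was 0.00 with HMGN1, -0.06 with HMGN2 and -0.01 with HMGN5. The set was chosen with earlier results of these data known, so these shares and medians describe it and do not test it. All comparisons in this cell line use the same 3 vector arrays, so the pools are not independent of each other in this respect. Changes are differences of log2 intensity with their standard error (SE), from 3 arrays in each group, and a p that misses the threshold does not show that the levels were alike.

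**Figure D1:**
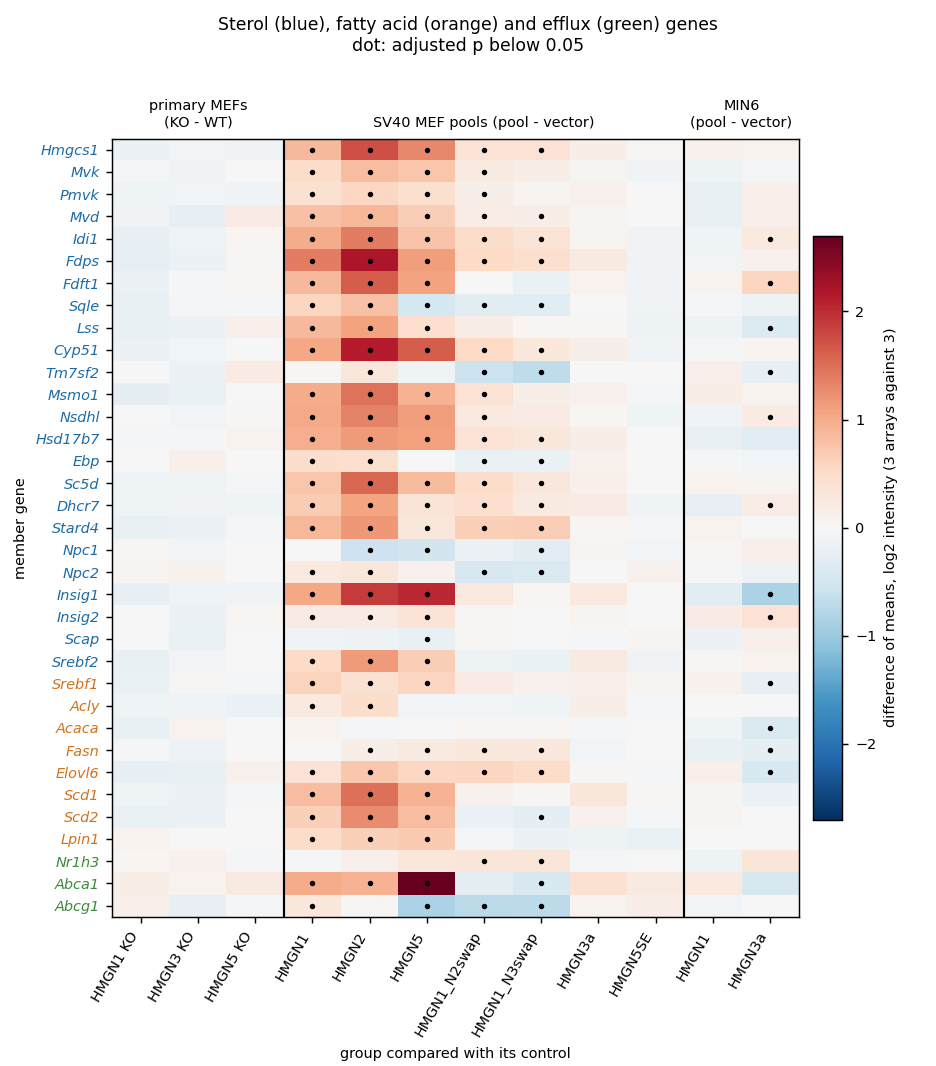
Map of the difference of means in log2 intensity for each measured gene (vertical axis; blue names for the sterol branch, orange for fatty acid, green for efflux) in each knock out or construct against its control (horizontal axis), from blue (lower) to red (higher), with a dot where the adjusted p was below 0.05. Most sterol genes are red for HMGN1, HMGN2 and HMGN5 in SV40 MEFs, up to 2.18 for Fdps. Sterol genes that are blue with a dot in these columns are Sqle, Npc1 and Scap for HMGN5 and Npc1 for HMGN2. The 3 knock out columns hold no dot. Abca1 and Nr1h3 are drawn as measured, also where a group lay below the dim level.

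The enzymes that lead from acetyl-CoA units to farnesyl diphosphate rose together: Hmgcs1, Mvk, Pmvk, Mvd, Idi1 and Fdps, 6 of 6, were called higher in each of the HMGN1, HMGN2 and HMGN5 pools. Fdps, which makes farnesyl diphosphate at the fork between sterols and isoprenoids, read 9.06, 9.10 and 9.19 on the 3 vector arrays, 10.50, 10.42 and 10.58 with HMGN1, 11.07, 11.38 and 11.44 with HMGN2 and 10.27, 10.21 and 10.27 with HMGN5. Every array of the 3 pools lay above every vector array, and the HMGN2 arrays lay above all others. The rise was 1.38 ± 0.11 (adjusted p = 4.66e-09) with HMGN1, 2.18 ± 0.11 (adjusted p = 1.03e-12) with HMGN2, which is 4.53-fold, and 1.13 ± 0.11 (adjusted p = 2.34e-08) with HMGN5. Hmgcs1, which makes HMG-CoA, read 9.06, 9.06 and 9.23 with the vector, 10.04, 9.92 and 10.03 with HMGN1, 10.82, 10.94 and 10.84 with HMGN2 and 10.37, 10.39 and 10.45 with HMGN5. These 4 groups did not overlap, with the vector lowest and HMGN2 highest. The rise of Hmgcs1 was 0.88 ± 0.07 (adjusted p = 8.35e-09), 1.75 ± 0.07 (adjusted p = 3.47e-14) and 1.29 ± 0.07 (adjusted p = 2.53e-12) in the same order. The other members of the arm rose too: the isomerase Idi1 by 1.01, 1.39 and 0.78, the decarboxylase Mvd by 0.79, 0.89 and 0.66, and the kinases Mvk by 0.49, 0.83 and 0.75 and Pmvk by 0.42, 0.55 and 0.43.

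The squalene steps did not move as one in the HMGN5 pool. Fdft1, which joins farnesyl units into squalene, rose by 0.87 ± 0.08 (adjusted p = 9.31e-08) with HMGN1, 1.64 ± 0.08 (adjusted p = 1.07e-12) with HMGN2 and 1.08 ± 0.08 (adjusted p = 6.08e-10) with HMGN5. Lss, which closes squalene epoxide to lanosterol, rose by 0.87, 1.08 and 0.46. Sqle, the squalene epoxidase between them, read 10.01, 9.97 and 10.02 with the vector, 10.51, 10.53 and 10.68 with HMGN1, 10.71, 10.78 and 10.91 with HMGN2 and 9.51, 9.50 and 9.55 with HMGN5. The HMGN1 and HMGN2 arrays lay above the vector arrays and the HMGN5 arrays lay below them, with no overlap. The change of Sqle was 0.57 ± 0.07 (adjusted p = 1.88e-06) with HMGN1, 0.80 ± 0.07 (adjusted p = 4.79e-09) with HMGN2 and -0.48 ± 0.07 (adjusted p = 5.59e-06) with HMGN5. Sqle was thus the 1 enzyme of the chain called lower in the HMGN5 pool.

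Of the 8 measured enzymes after lanosterol, 7 were called higher with HMGN1, 8 with HMGN2 and 6 with HMGN5. Cyp51, the lanosterol demethylase, read 6.73, 6.82 and 6.90 with the vector, 7.88, 7.78 and 7.94 with HMGN1, 8.87, 8.89 and 9.01 with HMGN2 and 8.47, 8.36 and 8.52 with HMGN5. The 4 groups stood apart, in the order vector, HMGN1, HMGN5, HMGN2. Cyp51 rose by 1.05 ± 0.08 (adjusted p = 8.9e-10), 2.11 ± 0.08 (adjusted p = 4.21e-15) and 1.63 ± 0.08 (adjusted p = 7.76e-14) with HMGN1, HMGN2 and HMGN5. Nsdhl, which takes part in removing the methyl groups at carbon 4, read 7.78, 7.85 and 7.82 with the vector and 8.86, 8.77 and 8.90 with HMGN1, groups that did not overlap. It rose by 1.03 ± 0.09 (adjusted p = 3.18e-08) with HMGN1, 1.33 with HMGN2 and 1.12 with HMGN5. Its partners in that step rose as well, the oxidase Msmo1 by 1.00, 1.47 and 0.94 and the reductase Hsd17b7 by 0.98, 1.14 and 1.10. Of the last enzymes, the desaturase Sc5d rose by 0.75, 1.56 and 0.86 and the reductase Dhcr7 by 0.68, 1.06 and 0.35. The isomerase Ebp rose by 0.47 with HMGN1 and 0.43 with HMGN2, and its change of 0.02 with HMGN5 was not called (adjusted p = 0.779). The reductase Tm7sf2 was called in the HMGN2 pool, where it rose by 0.30, and changed by 0.03 and -0.12 with HMGN1 and HMGN5 without a call.

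**Figure D2:**
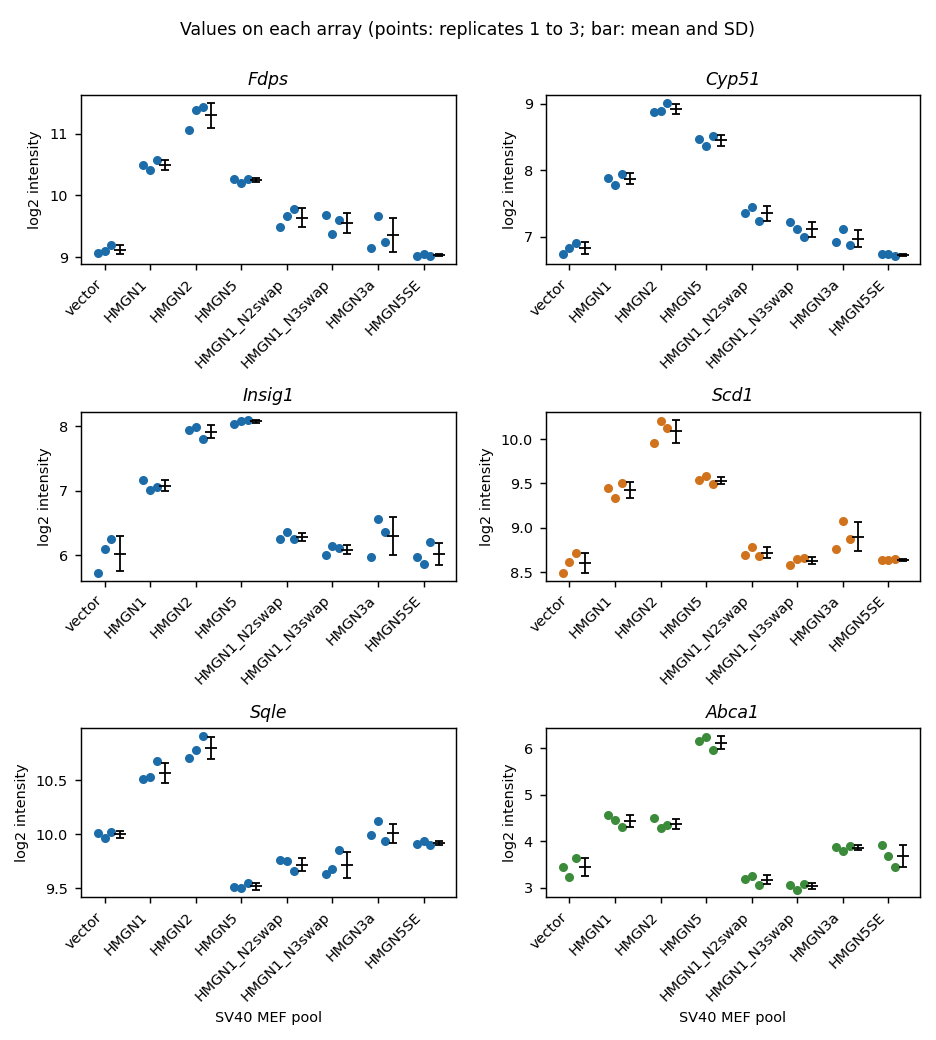
Log2 intensity of Fdps, Cyp51, Insig1, Scd1, Sqle and Abca1 on the 3 arrays of each SV40 MEF pool (points, with the mean and SD as a bar beside them; the vertical axes do not start at 0). The HMGN1, HMGN2 and HMGN5 arrays stand above the vector arrays, except for Sqle, whose HMGN5 arrays at 9.50 to 9.55 stand below the vector arrays.

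Genes of sterol supply and transport did not follow a single direction. Stard4, a soluble sterol carrier, rose by 0.89, 1.18 and 0.30 with HMGN1, HMGN2 and HMGN5. Npc1, the membrane protein that passes cholesterol out of lysosomes, fell by 0.55 (adjusted p = 8.74e-06) with HMGN2 and by 0.50 (adjusted p = 1.82e-05) with HMGN5, and its change with HMGN1 was 0.02. Npc2, its soluble partner in the lysosome, rose by 0.27 with HMGN1 and 0.30 with HMGN2, and its change of 0.12 with HMGN5 was not called.

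Among the regulators, the INSIG genes and Srebf2 rose while Scap did not. Insig1, which retains SCAP and SREBP in the endoplasmic reticulum and is itself a target of SREBP, read 5.73, 6.10 and 6.25 with the vector, 7.17, 7.01 and 7.06 with HMGN1, 7.94, 7.99 and 7.80 with HMGN2 and 8.03, 8.07 and 8.10 with HMGN5. All arrays of the 3 pools lay above the vector arrays, and the HMGN5 arrays were highest. The rise was 1.05 ± 0.12 (adjusted p = 1.39e-06), 1.88 ± 0.12 (adjusted p = 5.87e-11) and 2.04 ± 0.12 (adjusted p = 5.9e-12), the last of which is 4.1-fold. Insig2, the second such anchor, rose by 0.23, 0.22 and 0.37. Srebf2, the gene of SREBP2, rose by 0.53 ± 0.15 (adjusted p = 0.0115), 1.14 ± 0.15 (adjusted p = 2.79e-06) and 0.66 ± 0.15 (adjusted p = 0.00121). Scap, the escort, changed by -0.11 with HMGN1 and -0.14 with HMGN2 without a call, and fell by 0.19 (adjusted p = 0.0302) with HMGN5.

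In the fatty acid branch, 6 of 8 genes were called higher with HMGN1, 7 with HMGN2 and 6 with HMGN5, and 0 lower in each. The desaturases moved most: Scd1, which makes oleate-type fatty acids, read 8.49, 8.61 and 8.71 with the vector, 9.45, 9.33 and 9.51 with HMGN1, 9.95, 10.20 and 10.13 with HMGN2 and 9.54, 9.58 and 9.49 with HMGN5. None of the arrays of these pools overlapped the vector arrays, and HMGN2 was highest. Scd1 rose by 0.83 ± 0.08 (adjusted p = 5.76e-08), 1.49 ± 0.08 (adjusted p = 1.46e-12) and 0.93 ± 0.08 (adjusted p = 1.83e-09), and Scd2 by 0.65, 1.27 and 0.83. The elongase Elovl6 rose by 0.40, 0.72 and 0.55, and the phosphatidate phosphatase Lpin1 by 0.50, 0.65 and 0.70. Srebf1 itself rose by 0.61, 0.41 and 0.59. The enzymes that build the chain moved less than the desaturases. Acaca, the carboxylase that makes malonyl-CoA, changed by 0.10, -0.03 and -0.01 and was called in none of the 3 pools. Fasn, the fatty acid synthase, changed by 0.02 with HMGN1 without a call, and rose by 0.16 with HMGN2 and 0.25 with HMGN5. Acly, which makes cytosolic acetyl-CoA for both branches, rose by 0.27 with HMGN1 and 0.48 with HMGN2 and changed by -0.08 with HMGN5 without a call.

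The 2 measured exporters parted company in the HMGN5 pool. Abca1, which passes cholesterol to lipid-poor apolipoproteins, read 3.45, 3.23 and 3.64 with the vector, 4.57, 4.45 and 4.31 with HMGN1, 4.49, 4.29 and 4.34 with HMGN2 and 6.15, 6.24 and 5.96 with HMGN5. The vector mean of 3.44 lay below the dim level of 3.63, so on the log2 scale Abca1 was higher by at least 0.81 with HMGN1 (adjusted p = 5.07e-07), at least 0.74 with HMGN2 (adjusted p = 5.15e-07) and at least 2.48 with HMGN5 (adjusted p = 5.93e-15), against that level. These p-values are those of the limma test of the difference as measured, not of the bound. No array of these pools overlapped the vector arrays, and the 3 HMGN5 arrays stood far above the rest. Abcg1, which exports cholesterol to larger lipoproteins, read 6.59, 6.69 and 6.58 with the vector and 5.71, 5.95 and 5.61 with HMGN5, a fall of 0.86 ± 0.10 (adjusted p = 2.41e-07) with no overlap. With HMGN1 Abcg1 rose by 0.28 (adjusted p = 0.0338), and with HMGN2 it changed by 0.04 (adjusted p = 0.791). Nr1h3, the gene of LXR alpha, had means of 3.52 to 3.84 in these pools, about the dim level, and was called in none of them. Markers of fat cells moved in the same pool: the sum over the 7 measured markers was 107.3 to 119.6 with HMGN5 against 52.09 to 54.01 with the vector, with Lpl and Pparg above the dim level and the other 5 below it. With HMGN2, Lpl was called higher as well (adjusted p = 1.19e-05) and the sum was 52.1 to 55.05. The part of these markers in the change of the lipid genes was not tested. The sum of the fibroblast markers was 16320 to 17880 with HMGN2 and 19330 to 20020 with HMGN5 against 8470 to 8785 with the vector, also not tested as a part of these changes. In bulk RNA, fewer cells of a type and less RNA per cell cannot be told apart.

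The pools were also compared with each other, which leaves the vector out. They differed in the sex-linked RNA Xist as well. Against the vector, Xist changed by 2.5 with HMGN1_N2swap, 2.21 with HMGN1_N3swap and 1.49 with HMGN2. It changed by -0.55 with HMGN1 and -0.56 with HMGN5, and was not called with HMGN3a or HMGN5SE. Whether the SV40 pools also differ in their cells, and the part of this in any comparison of them, was not tested. HMGN2 stood above HMGN1 for most of the programme: 20 genes were called higher and 2 lower, against 41.1% of all genes (14.9% higher, 26.2% lower). The largest differences were in Cyp51 (1.05 ± 0.08 (adjusted p = 4.69e-10)), Hmgcs1 (0.87), Insig1 (0.83), Sc5d (0.81) and Fdps (0.80), and Srebf2 differed by 0.61. Scd1 led the fatty acid branch at 0.66. The genes lower with HMGN2 were Npc1 (-0.57) and Abcg1 (-0.25). HMGN5 stood below HMGN2, with 20 genes called lower and 1 higher, against 49.3% of all genes (27.8% higher, 21.5% lower). Sqle differed by -1.28 ± 0.07 (adjusted p = 7.38e-13), Fdps by -1.05, Abcg1 by -0.90 and Stard4 by -0.89. The gene higher with HMGN5 was Abca1, by 1.74 ± 0.11 (adjusted p = 1.11e-11). Insig1 differed by 0.16 (adjusted p = 0.309), with a 95% interval of -0.10 to 0.41.

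**Figure D3:**
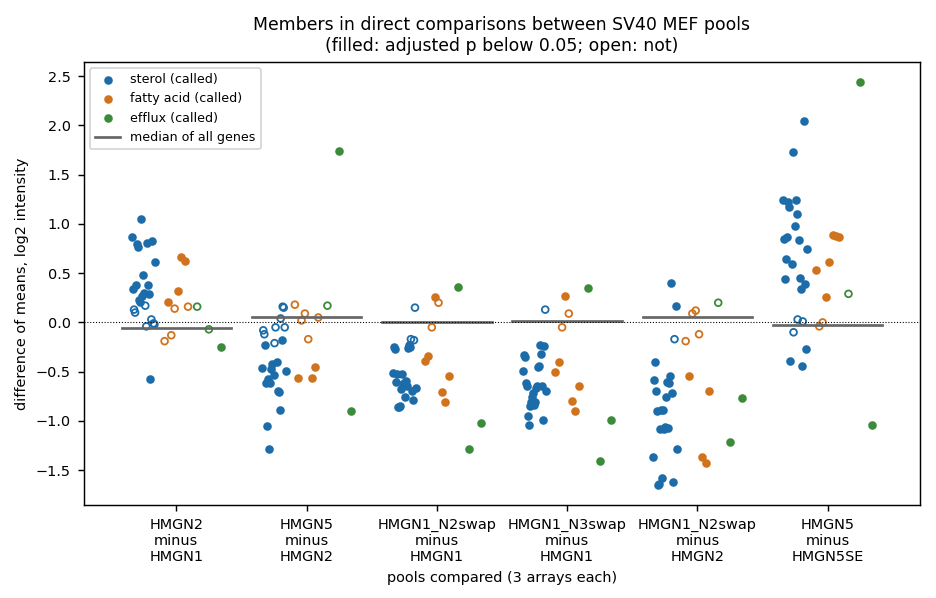
Difference of means in log2 intensity (vertical axis) of each measured gene in 6 comparisons between SV40 MEF pools (horizontal axis), coloured by branch, filled where the adjusted p was below 0.05, with a line at the median of all genes. Most sterol genes lie above 0 for HMGN2 minus HMGN1, up to 1.05 for Cyp51, and below 0 for both swap pools minus HMGN1.

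The pools with the swap constructs of HMGN1 showed a smaller and mixed change of the programme. With HMGN1_N2swap, 16 genes were called higher and 5 lower (60% of the set against 37% of all genes, of which 17.7% higher and 19.3% lower), and with HMGN1_N3swap 12 higher and 8 lower (57.1% against 37.4%, 17.4% higher and 20% lower). The median change of the sterol genes was 0.22 and 0.12, and that of the fatty acid genes 0.09 and 0.04. Of the 6 mevalonate enzymes, 6 were called higher with HMGN1_N2swap and 4 with HMGN1_N3swap, led by Fdps. Fdps read 9.49, 9.66 and 9.78 with HMGN1_N2swap and 9.68, 9.37 and 9.60 with HMGN1_N3swap, above the vector arrays and below the HMGN1 arrays given earlier, a rise of 0.53 ± 0.11 (adjusted p = 0.000777) and 0.43 ± 0.11 (adjusted p = 0.00422) against the vector. Cyp51 read 7.36, 7.44 and 7.23 and 7.22, 7.11 and 6.99, again between vector and HMGN1, a rise of 0.53 ± 0.08 (adjusted p = 1.4e-05) and 0.29 ± 0.08 (adjusted p = 0.00517). Insig1 changed by 0.26 (adjusted p = 0.0994) and 0.06 (adjusted p = 0.74), with no call.

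In the swap pools Stard4 kept most of the rise it had with HMGN1, and the rise of Elovl6 was no smaller than with HMGN1. Stard4 read 7.60, 7.64 and 7.64 with the vector, 8.35, 8.29 and 8.18 with HMGN1_N2swap and 8.13, 8.39 and 8.37 with HMGN1_N3swap, higher on every array, by 0.64 ± 0.08 (adjusted p = 1.6e-06) and 0.67 ± 0.08 (adjusted p = 1.01e-06). Elovl6 read 8.33, 8.29 and 8.30, 8.95, 8.97 and 8.80 and 8.61, 8.90 and 8.88 in these groups, higher on every array, by 0.59 ± 0.08 (adjusted p = 6.93e-06) and 0.49 ± 0.08 (adjusted p = 7.56e-05). Other members fell. Tm7sf2 read 6.32, 6.26 and 6.19 with the vector, 5.80, 5.61 and 5.60 with HMGN1_N2swap and 5.44, 5.75 and 5.49 with HMGN1_N3swap, below the vector on every array, at -0.59 ± 0.08 (adjusted p = 3.08e-06) and -0.69 ± 0.08 (adjusted p = 3.6e-07). Abcg1 read 5.81, 5.81 and 6.04 and 5.99, 6.03 and 5.72, also below every vector array, at -0.73 ± 0.10 (adjusted p = 5.47e-06) and -0.70 ± 0.10 (adjusted p = 9.17e-06). Sqle, Npc2 and Ebp were lower in both pools, at -0.28, -0.43 and -0.18 with HMGN1_N2swap and -0.28, -0.39 and -0.18 with HMGN1_N3swap. Npc1 and Scd2 were called lower with HMGN1_N3swap, at -0.30 and -0.24, and changed by -0.15 and -0.16 with HMGN1_N2swap without a call. Abca1 lay below the dim level in both pools and the vector, with means of 3.17 and 3.03 against 3.44, so no change is given for it, although the fall with HMGN1_N3swap was called (adjusted p = 0.0055). Nr1h3 was called higher (adjusted p = 0.0393 and 0.0456), with means 0.24 and 0.23 above the dim level, bounds that carry no standard error. These pools are among the few through which Nr1h3 passed the filter, so its calls as higher there are not independent of the filter. The rise of Hsd17b7, 0.39 and 0.30, turned to -0.05 and -0.02 when all its probe sets above the dim level were averaged.

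Set directly against HMGN1, the swap pools were lower for nearly the whole programme: 28 genes were called lower and 2 higher with HMGN1_N2swap (46% of all genes called, 19.9% higher and 26.1% lower), and 30 lower and 2 higher with HMGN1_N3swap (50.9%, 22.7% higher and 28.2% lower). Fdps differed by -0.86 ± 0.11 (adjusted p = 2.14e-06) and -0.95 ± 0.11 (adjusted p = 4.94e-07), Insig1 by -0.79 and -0.99, Sqle by -0.85 and -0.85, and Abcg1 by -1.02 and -0.99. Abca1 was lower by at least 0.81 in both. Stard4 differed by -0.25 and -0.23, and Elovl6 by 0.20 (adjusted p = 0.0543) and 0.09 (adjusted p = 0.376). The genes higher than with HMGN1 were Fasn, by 0.26 and 0.27, and Nr1h3, by at least 0.24 and 0.23. For Nr1h3 the limit from the filter given above holds here too. Against HMGN2, HMGN1_N2swap had 27 genes lower and 2 higher (50.2% of all genes called, 27.7% higher and 22.5% lower), with Fdps at -1.65, Fdft1 at -1.64, Insig1 at -1.62 and Cyp51 at -1.58 ± 0.08 (adjusted p = 6.96e-13). Fdft1 was the 1 gene of 22 with several probe sets whose probe sets ran in opposite directions here: with HMGN1_N3swap against HMGN1 the brightest gave -1.04 and another -0.98, while the remaining pair gave 0.46 and 0.42. The difference between the 3′ and 5′ probe sets of Actb, a sign of RNA quality, was 0.39 to 0.79 in the swap arrays and 0.01 to 0.39 in the other SV40 arrays. With it as a covariate the counts called against the vector were 17 with HMGN1_N2swap (13 higher, 4 lower) and 14 with HMGN1_N3swap (9 higher, 5 lower), and against HMGN1 25 and 30.

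HMGN3a and HMGN5SE left the programme near the vector level in SV40 MEFs. With HMGN3a, 0 of 35 genes were called by limma, against 0.0297% of all genes called. An unadjusted p below 0.05 was found for 7 of the 35 and for 1468 of all 13447 genes tested. Changes ran from -0.14 (Lpin1) to 0.42 as measured for Abca1, which is at least 0.23 against the dim level, with a smallest adjusted p of 0.193. Fdps read 9.15, 9.66 and 9.25 on the HMGN3a arrays, of which the second stood apart from the other 2. That array was the highest of its group for 20 of 24 sterol genes. Its median stood 0.29 above the vector mean for the sterol enzymes and 0.02 above it for all genes. On the other 2 arrays the median for the sterol enzymes was 0.04 and -0.03. The count of genes called stayed at 0 without the second array. With HMGN5SE, 0 of 35 were called, against 0.0149% of all genes. Here 1 of the 35 had an unadjusted p below 0.05, as did 703 of all 13447 genes tested. Changes ran from -0.17 (Lpin1) to 0.24 as measured for Abca1, which is at least 0.05 against the dim level. The smallest adjusted p was 0.943. The direct comparison of HMGN5 with HMGN5SE had 25 genes higher and 4 lower, against 42% of all genes (19.8% higher, 22.2% lower): Abca1 (2.44), Insig1 (2.04), Cyp51 (1.73), Hmgcs1 (1.24) and Nsdhl (1.24) were the highest, and Abcg1 (-1.04), Npc1 (-0.44), Sqle (-0.39) and Scap (-0.27) were the 4 lower ones.

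In MIN6 cells HMGN1 did not raise the cholesterol genes detectably, and HMGN3a changed some members in both directions. With HMGN1, 0 of 35 genes were called by limma, against 1.16% of all genes called. An unadjusted p below 0.05 was found for 4 of the 35 and for 2241 of all 13160 genes tested. Changes ran from -0.31 (Insig1) to 0.27 (Abca1), and the 95% intervals of all members lay between -0.74 and 0.62. With HMGN3a, 5 genes were called higher and 7 lower, 34.3% of the set against 34% of all genes (14.5% higher, 19.5% lower), so the share called was near the background. Insig1 read 8.35, 8.28 and 8.21 with the vector and 7.23, 7.97 and 7.05 with HMGN3a, lower on every array with the second array closest to the controls, at -0.86 ± 0.19 (adjusted p = 0.00624). Fdft1 read 9.78, 9.84 and 9.98 with the vector and 10.39, 10.50 and 10.49 with HMGN3a, higher on every array, at 0.59 ± 0.07 (adjusted p = 0.000109). Insig2 was higher and Lss was lower, at 0.39 ± 0.07 (adjusted p = 0.00144) and -0.36 ± 0.07 (adjusted p = 0.00231). The smaller calls of the sterol branch were Idi1 (0.26), Nsdhl (0.22) and Dhcr7 (0.21) upward and Tm7sf2 (-0.22) downward. With the replicate number as a block, 10 genes were called, and Idi1, Tm7sf2 and Dhcr7 had adjusted p-values of 0.0529, 0.0544 and 0.0516.

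The fatty acid branch went one way in the MIN6 HMGN3a pool: 4 of 8 genes were called lower and 0 higher. Elovl6 read 9.03, 9.04 and 9.09 with the vector and 8.54, 8.62 and 8.74 with HMGN3a, at -0.42 ± 0.06 (adjusted p = 0.000516). Acaca read 9.10, 9.05 and 9.09 with the vector and 8.55, 8.66 and 8.83 with HMGN3a, at -0.40 ± 0.07 (adjusted p = 0.00144). In both genes every HMGN3a array lay below every vector array. Fasn and Srebf1 were lower by less, at -0.26 and -0.22. Abca1 changed by -0.44 against the vector (adjusted p = 0.0519, not called) and by -0.72 against the HMGN1 pool (adjusted p = 0.00565). That direct comparison of HMGN3a with HMGN1 had 8 genes higher and 8 lower, against 33.9% of all genes (16.3% higher, 17.7% lower), with Fdft1 (0.51), Nr1h3 (0.46) and Dhcr7 (0.44) highest and Abca1, Insig1 (-0.56) and Elovl6 (-0.55) lowest. It had 10 called genes without HMGN1 replicate 1, 5 higher and 5 lower.

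**Figure D4:**
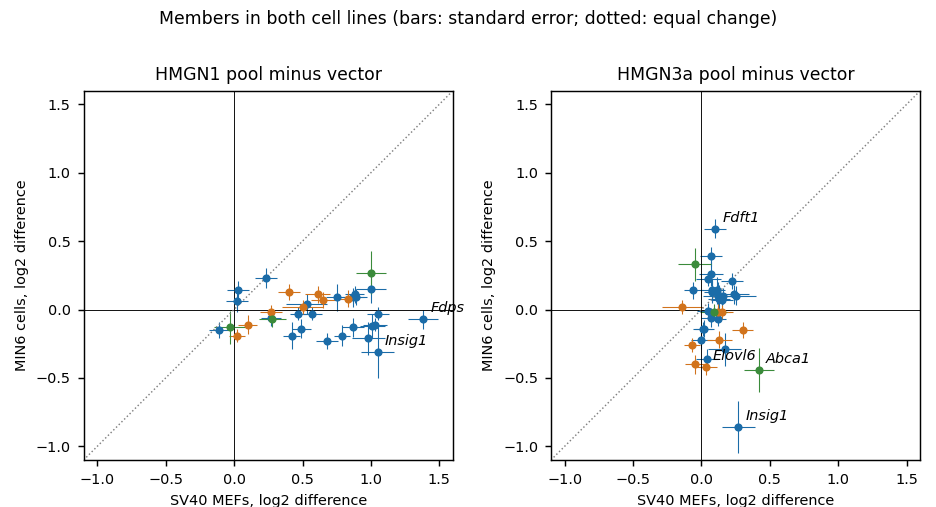
Log2 difference from the vector pool in SV40 MEFs (horizontal axis) and in MIN6 cells (vertical axis) for each measured gene with HMGN1 (left) and HMGN3a (right), with standard errors as bars, a dotted line of equal change, and blue for sterol, orange for fatty acid and green for efflux genes. With HMGN1 the genes spread along the SV40 axis up to 1.38 and lie between -0.31 and 0.27 on the MIN6 axis.

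The effects of the same construct in the 2 lines were compared by an interaction term. For HMGN1, 24 of 35 genes (68.6%) had a lower change in MIN6 cells than in SV40 MEFs and 0 a higher one, against 20.7% of all genes (7.64% higher, 13.1% lower), and 19 of these were sterol genes. Fdps differed by -1.45 ± 0.15 (adjusted p = 1.97e-08): it read 11.26, 11.36 and 11.43 with the vector and 11.36, 11.22 and 11.26 with HMGN1 in MIN6 cells, groups that overlap. Cyp51 differed by -1.08 ± 0.10 (adjusted p = 2.63e-09), with 10.24, 10.32 and 10.26 and 10.27, 10.24 and 10.22 in MIN6 cells. Insig1, Nsdhl and Idi1 differed by -1.36, -1.14 and -1.13. For HMGN3a, 1 gene had a higher and 7 a lower change in MIN6 cells (22.9% of the set against 19.9% of all genes, 7.11% higher and 12.7% lower). They were Fdft1 (0.50) on the higher side and Insig1 (-1.13), Abca1, Elovl6 (-0.45), Scd1 (-0.45), Lss (-0.41), Srebf1 (-0.35) and Acaca (-0.35) on the lower side. The difference for Abca1 was -0.86 as measured and rests on an SV40 vector mean below the dim level. The lines differ in tissue, in the scale of their deposited intensities and in the cells infected, which cannot be told apart here.

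In primary MEFs no member was called in any knock out. The share of male cells, estimated from sex-linked RNA, was 0.87, 0.04 and 0.51 on the HMGN1 knock out arrays against 0.04 to 0.05 in their WT group, and 0.01, 0.94 and 0.44 on the arrays labelled HMGN5 knock out against 0.93 to 0.95, so the arrays of these knock out groups held different mixes of cells. In the HMGN3 knock out it was 0.84 to 0.86 against 0.86 to 0.94. With that share as a covariate the count of members called was 0 as well in each of the 3 comparisons. For HMGN1 the count was 0 of 35 by limma, against 0.44% of all genes called. An unadjusted p below 0.05 was found for 9 of the 35 and for 2119 of all 13651 genes tested. Changes ran from -0.27 (Msmo1) to 0.15 (Abca1), the 95% intervals lay between -0.51 and 0.60, and the smallest adjusted p was 0.112. Msmo1 read 7.82, 7.76 and 7.77 in WT and 7.57, 7.39 and 7.59 in knock out cells, lower on every array (adjusted p = 0.141). The median change of the 35 genes was -0.11 where that of all genes was -0.02, and a shared shift of the set was not tested. For HMGN3 the count was again 0, against 0.586% of all genes. Here 7 of the 35 had an unadjusted p below 0.05, as did 1159 of all 13651 genes. Changes ran from -0.23 (Mvd) to 0.13 (Ebp), with a median of -0.10 where that of all genes was -0.01, again not tested as a shift. The smallest adjusted p was 0.237. For the arrays labelled HMGN5 knock out the count was 0, against 0.0733% of all genes. Here 2 of the 35 had an unadjusted p below 0.05, as did 764 of all 13651 genes. Changes ran from -0.15 (Acly) to 0.24 (Abca1) around a median of 0.01, and the smallest adjusted p was 0.791.

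The 3 WT groups differed from each other more than any of them differed from its knock out, counted by members called. HMGN3 WT against HMGN1 WT had 6 genes higher and 9 lower, against 31.5% of all genes (11.1% higher, 20.4% lower), and 9 higher and 5 lower after a further quantile normalization. The fatty acid branch was lower in 8 of 8 genes. Scd2 read 10.64, 10.63 and 10.63 in HMGN1 WT and 9.95, 9.80 and 9.95 in HMGN3 WT, at -0.73 ± 0.06 (adjusted p = 4.52e-07), and Acaca read 6.42, 6.44 and 6.36 and 5.74, 5.82 and 5.69, at -0.66 ± 0.06 (adjusted p = 1.14e-06). Both genes were lower on every HMGN3 WT array. The exporters were higher, Abcg1 by 0.71 and Abca1 by 0.44, and of the sterol genes Dhcr7 was lowest at -0.71. HMGN5 WT against HMGN1 WT had 0 genes higher and 17 lower, against 11.7% (4.72% higher, 7.02% lower), with Dhcr7 (-0.72), Elovl6 (-0.47) and Sc5d (-0.47) lowest. HMGN5 WT against HMGN3 WT had 2 higher and 17 lower, against 17.3% (9.93% higher, 7.33% lower). The 2 higher were Acaca (0.44) and Scd2 (0.29), and 16 of the 17 lower were sterol genes such as Sc5d (-0.75), Msmo1 (-0.69) and Idi1 (-0.59). Single arrays bore on these counts. HMGN5 WT replicate 1 was the highest of its group for 20 of 24 sterol genes, and HMGN3 WT replicate 1 for 17 of 24. The first comparison had 9 called genes without HMGN1 WT replicate 2, HMGN1 WT replicate 3 or HMGN3 WT replicate 2, the second 11 without HMGN1 WT replicate 3 or HMGN5 WT replicate 2, and the third 12 without HMGN5 WT replicate 2. The share of male cells given above was low in HMGN1 WT and high in HMGN3 WT and HMGN5 WT, and with that share as a covariate the first count was 8 and the second 9. Sex and WT group nearly coincide in these 2 comparisons and cannot be told apart. Summed macrophage markers were 387 to 427.8 in HMGN1 WT, 920 to 1007 in HMGN3 WT and 454.2 to 825.9 in HMGN5 WT, and their part in these differences was not tested.

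Neighbouring lipid pathways were counted the same way, from lists of genes outside the set that were also chosen with earlier results known. They are read against the 29.4%, 44.3% and 41.5% of all genes called with HMGN1, HMGN2 and HMGN5. Of 17 other genes of fatty acid activation, desaturation and elongation measured in SV40 MEFs, 6 were called higher and 3 lower with HMGN1, 10 and 1 with HMGN2, and 10 and 5 with HMGN5. Acss2, which makes acetyl-CoA from acetate, rose by 0.73, 1.33 and 0.76 in these pools. The desaturase Fads2 rose by 0.51 with HMGN1 and 1.33 with HMGN2, and with HMGN5 the elongase Elovl7 fell by 1.57 and the malic enzyme Me1 by 1.14. Of 14 genes of sterol storage and transport, 5 were higher and 1 lower with HMGN1, 8 and 4 with HMGN2 and 6 and 2 with HMGN5. Mylip, a ubiquitin ligase that acts on lipoprotein receptors, rose by 0.63, 0.58 and 0.54, and Nceh1, which splits cholesterol esters, fell by 0.89 with HMGN2. Of 14 glycerolipid genes, 5 and 1, 4 and 3, and 5 and 5 were called higher and lower, of which the 7 with HMGN2 are near the share of all genes, and with HMGN5 the acyltransferases Gpat3 and Agpat3 fell by 1.41 and 1.19. The isoprenoid branches, which share farnesyl diphosphate with sterol synthesis, did not rise as a block: of 11 genes, 2 were higher and 1 lower with HMGN1, 2 and 7 with HMGN2 and 3 and 2 with HMGN5, near the share of all genes with HMGN1 and HMGN5. Rabggtb, a subunit of the enzyme that prenylates Rab proteins, fell by 0.63 with HMGN2. Of 10 genes that process or degrade the SREBP machinery, 3 and 0, 1 and 2, and 1 and 4 were called, near or below the share of all genes with HMGN1 and HMGN2, and the ubiquitin ligase Rnf139 fell by 1.03 with HMGN5. In the swap pools, where 37% and 37.4% of all genes were called, the fatty acid list had 3 genes higher and 2 lower of 17 in each, below that share. The sterol transport list had 4 and 3 of 14 in each, and the glycerolipid list 4 and 5 with HMGN1_N2swap and 3 and 5 with HMGN1_N3swap, where Agpat1 fell by 1.01 and 0.88. In MIN6 cells with HMGN3a, where 34% of all genes were called, 2 were higher and 7 lower of 17 fatty acid genes, with Acss2 at -0.49, 2 and 5 of 14 sterol transport genes, with Tmem97 at -0.73, and 1 and 6 of 11 isoprenoid genes. Hsd3b7, an enzyme of bile acid synthesis, rose by 1.40. Across the 3 knock outs these lists held 1 call, the desaturase Fads1, which fell by 0.30 (adjusted p = 0.0358) in the HMGN1 knock out.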

How the data were processed

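RNA was labelled and hybridised to 51 arrays. The deposited values are linear intensity values per probe set, made by the authors with RMA per the submitters' processing notes, with no version or settings given. Medians differ between the 3 cell types, so each was treated as normalized apart, and 0 value columns were left unused. The log2 of each intensity was used with no further normalization. Of 45101 probe sets, 34884 had 1 gene symbol, 932 several, 9221 none and 64 were controls. A probe set stayed in if at least 1 group mean reached the 40th percentile of group means in its cell type. With the brightest such probe set per gene, 13651 genes were tested for the primary MEFs, 13447 for the SV40 line and 13160 for MIN6.

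One linear model per cell type, with group means as its terms, was fitted with limma 3.58.1 (R 4.3.3, with version 1.17.8 of the data.table package) over all genes, with Benjamini-Hochberg adjustment and a threshold of 0.05, two-sided. The interaction contrasts used both lines in 1 fit over 14430 genes. In all there were 24 comparisons. A group below the dim level (3.63 in SV40 MEFs) gives a bound against that level. An adjusted p printed with a bound is that of the difference as measured. The script was tested on simulated data with known changes. Python 3.11.15, pandas 2.3.3 and matplotlib 3.10.9 made the promoter counts and figures. The members and the lists were chosen with earlier results of these data known. Values on every array are given for up to 6 called genes per comparison whose groups did not overlap, by size of change and with the largest of each branch, and from other lists up to 3 called genes are named. The array values of genes in pools or comparisons beyond these were added for contrast after their values were seen.

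Replicate numbers were checked for pairing: in none of the comparisons did all 3 same-numbered pairs of arrays deviate together (correlation over 0.1). No 2 arrays were identical, and the highest correlation between arrays was 0.99872. Alternatives tried were no filter, the mean of all passing probe sets, a further quantile normalization, the replicate number as a block, the compared groups alone, the share of male cells or the Actb 3′ to 5′ difference as a covariate, and leaving out each array. The number of arrays limits the precision.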

Additional observations from a re-analysis of the deposited data

Results flagged for a closer look

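The response to HMGN1 differed between the 2 cell lines by the test of the interaction term. Of 35 genes, 24 were called (68.6%, above the share of all genes given earlier), all with the lower change in MIN6 cells. The differences (MIN6 minus SV40 MEFs, log2) were largest for Fdps at -1.45, Insig1 at -1.36, Hsd17b7 at -1.19 and Nsdhl at -1.14. For HMGN3a 8 of 35 genes were called (22.9%), near the share of all genes given earlier, so this count does not set the programme apart. Among them were Insig1 at -1.13, Abca1 at -0.86, Scd1 at -0.45 and Fdft1 at 0.50. The vector mean of Abca1 in SV40 MEFs lay below the dim level.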

How the results depend on the processing

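Counts of called members moved by over 1.5 times in the comparisons of WT groups when the share of male cells was a covariate, to 8 from 15 for HMGN3 WT against HMGN1 WT and to 9 from 17 for HMGN5 WT against HMGN1 WT. That share was low on every HMGN1 WT array and high on every array of the other WT groups. It nearly coincides with these comparisons, so sex and WT group cannot be told apart and the lower counts do not separate them. Leaving out each array in turn gave 9 to 12 called genes for HMGN3 WT against HMGN1 WT, 11 to 20 for HMGN5 WT against HMGN1 WT, 12 to 19 for HMGN5 WT against HMGN3 WT, 26 to 28 for HMGN1, 29 to 30 for HMGN2, 28 to 29 for HMGN5, 15 to 21 for HMGN1_N2swap and 15 to 17 for HMGN1_N3swap against the vector, 17 to 23 for HMGN2 against HMGN1, 20 to 21 for HMGN5 against HMGN2, 29 to 30 for HMGN5 against HMGN5SE, 28 to 30 and 30 to 32 for the swaps against HMGN1, 28 to 29 for HMGN1_N2swap against HMGN2, 8 to 14 for HMGN3a in MIN6 cells, 10 to 15 for HMGN3a against HMGN1 there, and 23 to 25 and 7 to 9 for the interactions. It gave 0 for the 3 knock outs, HMGN3a and HMGN5SE in SV40 MEFs and HMGN1 in MIN6 cells.

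With the replicate number as a block, which is a shared number only, counts were 22 for HMGN1_N2swap, 17 for HMGN1_N3swap and 10 for HMGN3a in MIN6 cells (21, 20 and 12 without it), and no count moved by over 1.5 times. Of 142 calls of single genes, 136 held with the block, 136 after a further quantile normalization, 131 with no filter, 132 with the mean of the probe sets and 127 with the compared groups alone. Hsd17b7 turned to -0.05 with HMGN1_N2swap and -0.02 with HMGN1_N3swap with the mean of its probe sets, from 0.39 and 0.30, and to -0.03 with HMGN1_N3swap with the Actb difference as a covariate. That covariate was run for the calls in SV40 MEFs alone, of which 118 held, 11 were lost and 1 turned. With 3 arrays a group the array number limits small changes, and Abca1 and Nr1h3 lie near the dim level in SV40 MEFs.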
